A study of Mus musculus with 48 samples.

Results

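The respiratory chain subunits analysed here were the 74 rows, of 23930 in the count table, whose gene symbol begins with Nduf plus a subunit letter and number, Sdha to Sdhd, Uqcr, Cox4 to Cox8 plus a letter, or Atp5. Of these, 69 passed the filter on low counts and were tested. By current assignment 66 of the tested genes encode subunits: 31 of complex I, 4 of complex II, 8 of complex III, 13 of complex IV and 10 of complex V. Ndufa4 was placed in complex IV, where it is now assigned. Ndufa4l2, Atp5s and Atp5sl were tested but placed in no complex. The rows not tested were Cox8c, Cox7b2, Cox8b, Cox6a2 and the pseudogene Atp5c1-ps, which held between 1 and 80 counts over all 48 libraries. Cyc1, a complex III subunit with another kind of symbol, is given with the electron carriers, and subunits encoded in mitochondrial DNA were not analysed here.

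RNA came from mouse liver, 4 replicates in each of 12 groups. Animals received phosphate-buffered saline (PBS) or a modified gapmer, an antisense oligonucleotide, to Scarb1, which encodes a high-density lipoprotein receptor. The gapmers were LX-A1656, LX-A2003 and LX-A3928, and where 3 values follow each other without names they are in this order. A gapmer pairs with its target transcript and recruits RNase H to cut it. Livers were taken at 24, 72 and 168 h after first administration. Dose, strain, sex, age and oligonucleotide sequence were each not given in the sources used here. Nothing in the labels ties a replicate to an animal of its own, so the p-values speak only of spread among these samples, some of which may be technical.

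The respiratory chain sits in the inner mitochondrial membrane. Complex I takes electrons from NADH and complex II from succinate, complex III passes them from ubiquinol to cytochrome c, and complex IV passes them to oxygen. Complexes I, III and IV pump protons, and complex V, the ATP synthase, uses the gradient to make ATP. Hepatocytes are rich in mitochondria and draw on this ATP for gluconeogenesis and the urea cycle.

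Because many subunit genes fell together, the promoters of some of them are shown, beside those of the isoforms Cox6b1 and Cox6b2, which went opposite ways. RefSeq start sites matched 54 of the 66 subunits. The windows searched ran from 250 bases before to 50 after the start, on both strands, and were compared with all 27025 RefSeq windows. That background was not limited to the genes tested here and was not matched for base content. The motif of NRF1, GCGCATGC, was in 8 of 54 subunit windows (14.8%) against 2.8% of all windows. In 6 subunit windows it lay wholly before the start. The YY1 motif AAGATGGC was also in 8 (14.8% against 2.88%), in no case wholly before the start. The ERR motif AAGGTCA was in 9.26% against 4.66%, the GABP motif CCGGAAGT in 7.41% against 4%, and the SP1 motif GGGCGG in 38.9% against 35.9%. No motif searched contains another, all were chosen after expression values were seen, and a match describes letters only. The 250 bases before the start are printed on the gene's own strand, with matches in capitals, from GRCm38.p6. The genes printed were picked, so they do not show how common a motif is. The first 3 carry NRF1 matches and Uqcr11 a GABP match. Uqcr11 also held an NRF1 match in the searched window, but not wholly before the start, so it is not in capitals. The capitals in Cox6b2 and the remaining ones in Ndufa8 and Sdhb are SP1 matches.
Ndufa8, chr2:36049339-36049588, minus strand: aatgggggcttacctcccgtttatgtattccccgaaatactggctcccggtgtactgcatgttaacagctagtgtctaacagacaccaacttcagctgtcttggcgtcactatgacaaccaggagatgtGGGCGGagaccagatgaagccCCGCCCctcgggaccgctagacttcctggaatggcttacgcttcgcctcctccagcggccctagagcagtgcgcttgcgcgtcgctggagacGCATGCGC
Sdhb, chr4:140961021-140961270, plus strand: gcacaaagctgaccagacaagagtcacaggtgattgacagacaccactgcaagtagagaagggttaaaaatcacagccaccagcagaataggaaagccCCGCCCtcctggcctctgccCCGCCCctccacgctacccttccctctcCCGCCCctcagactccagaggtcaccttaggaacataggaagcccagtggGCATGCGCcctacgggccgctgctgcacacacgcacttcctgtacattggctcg
Atp5k, chr5:108434400-108434649, minus strand: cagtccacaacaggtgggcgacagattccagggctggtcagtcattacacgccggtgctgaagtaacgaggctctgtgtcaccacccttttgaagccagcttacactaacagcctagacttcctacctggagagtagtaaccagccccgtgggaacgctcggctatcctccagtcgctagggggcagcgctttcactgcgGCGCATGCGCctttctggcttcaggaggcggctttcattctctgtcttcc
Uqcr11, chr10:80406822-80407071, minus strand: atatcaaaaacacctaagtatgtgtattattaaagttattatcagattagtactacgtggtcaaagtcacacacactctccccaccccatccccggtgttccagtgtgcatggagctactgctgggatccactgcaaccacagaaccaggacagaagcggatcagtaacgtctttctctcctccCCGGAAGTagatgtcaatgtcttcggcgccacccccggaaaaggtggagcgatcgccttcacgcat
Cox6b1, chr7:30626115-30626364, minus strand: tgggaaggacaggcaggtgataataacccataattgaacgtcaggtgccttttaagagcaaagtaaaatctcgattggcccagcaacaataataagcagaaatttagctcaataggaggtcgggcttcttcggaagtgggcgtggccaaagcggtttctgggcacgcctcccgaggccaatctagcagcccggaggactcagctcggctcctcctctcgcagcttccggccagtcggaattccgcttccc
Cox6b2, chr7:4753095-4753344, minus strand: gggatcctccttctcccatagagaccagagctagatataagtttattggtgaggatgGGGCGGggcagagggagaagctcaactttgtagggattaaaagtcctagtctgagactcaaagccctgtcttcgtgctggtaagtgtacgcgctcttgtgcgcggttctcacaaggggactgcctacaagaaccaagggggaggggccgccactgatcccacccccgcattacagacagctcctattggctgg
In LX-A1656 livers at 168 h Ndufa8 changed by -0.66 ± 0.15 and Atp5k by -1.31 ± 0.192 (log2 fold change ± SE, both called lower), and values of the others are given with their complexes. Cox6b1 held none of the 5 motifs in its printed window.

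Library totals ran from 8140065 to 17191129 counts. Scarb1, the targeted transcript, averaged 272 ± 24.2 CPM (depth-scaled counts; SD, n = 4) for PBS at 24 h and 320 ± 78.8 at 168 h. It lay between 4.42 and 48.1 CPM on average in the 9 oligonucleotide groups, and every treated library lay below every PBS library of its time. All 11 hepatocyte markers measured had counts in every group, with summed means from 38300 to 87800 CPM. Changes below are log2 fold changes ± SE, and a gene is called changed at an adjusted p under 0.05 in edgeR's quasi-likelihood F test, fitted to all 12672 genes tested. Levels are scaled with TMM factors. Scaling by library totals alone moved the median of all genes in the 168 h comparisons from 0.10, 0.036 and 0.083 to 0.56, 0.45 and 0.39. The split of calls over all genes then moved from 4326 higher and 3766 lower to 6469 and 2303 for LX-A1656, from 3775 and 3212 to 5865 and 1685 for LX-A2003, and from 3464 and 2623 to 5144 and 1458 for LX-A3928. The subunit medians moved from -1.01, -0.87 and -0.60 to -0.54, -0.44 and -0.31.

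Some libraries lay above the others of their group on these genes. Replicate 4 of LX-A3928 at 72 h, replicate 3 of LX-A3928 at 168 h, replicate 4 of LX-A1656 at 168 h and replicate 1 of PBS at 168 h were each the highest of their group for complex I. Their summed hepatocyte markers were also the highest of their groups. These stood at 111000 CPM against 79400 to 80800 in the other LX-A3928 libraries at 72 h. They stood at 91900 against 33800 to 47300 in LX-A3928 at 168 h, at 66500 against 45000 to 55800 in LX-A1656 at 168 h, and at 88100 against 67800 to 74700 in PBS at 168 h. Each of these libraries also had the lowest TMM factor of its group, at 0.7943, 0.9211, 1.114 and 0.8345 in the order named. A lower factor raises every scaled level of a library. What part the marker levels or the scaling have in the subunit values was not tested. At 168 h complex V stood at 0.28, -0.20, 0.16 and -0.25 in PBS replicates 1 to 4 (log2 from their mean). Replicate 3 was high there as well. Without replicate 1 of PBS the subunit medians at 168 h were -0.89, -0.77 and -0.50, with 59, 54 and 36 subunits lower. Calls lost without that library included Uqcrh with LX-A1656 and LX-A2003 (-0.59 and -0.61) and Atp5d with LX-A2003 (-0.47).

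At 24 h no change in a subunit of any of the 5 complexes passed the test. With only the 8 libraries of the LX-A3928 comparison in the fit 6 subunits were called. Ndufa8, Ndufa10, Ndufa13 and Atp5j2 were lower and Ndufb8 and Uqcr10 higher, at sizes from 0.30 to 0.37. The same fit called 714 of all genes higher and 721 lower, so these subunit calls came among many others. In the fit of all libraries no subunit was called with any oligonucleotide. The medians over the 66 subunits were -0.0021 for LX-A1656, 0.058 for LX-A2003 and 0.03 for LX-A3928. Among all 69 tested members edgeR called 1, 0 and 0, where 2.86, 2.09 and 3.26% of all genes were called. At an unadjusted p under 0.05 the counts were 1, 2 and 4, and DESeq2 called 1, 0 and 0. In TMM-scaled CPM written as a percentage, the 66 subunits summed to 2.33 ± 0.0759% in PBS livers and from 2.31 to 2.39% on average in treated livers.

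At 72 h the subunits fell with LX-A1656. Of the 69 members 43 were lower and 0 higher, where 23.4% of all genes were called lower, and 41 of the 43 had all 4 treated libraries below all 4 PBS libraries. DESeq2 called 40 lower and 0 higher, and 1 member was higher at an unadjusted p under 0.05. The median over the subunits was -0.49, against 0.053 for all genes, and by complex it was -0.52, -0.58, -0.42, -0.42 and -0.49 for I to V. Lower calls numbered 21 of 31 in complex I, 3 of 4 in II, 4 of 8 in III, 6 of 13 in IV and 8 of 10 in V. Scaling by library totals alone left 26 lower calls, while calls over all genes went from 3134 higher and 2968 lower to 4294 and 2153. Hepatocyte markers were lower in the same livers: the 11 summed to between 42400 and 60800 CPM against 71700 to 77500 in PBS livers, with 8 called lower and 0 higher. The 6 monocyte and recruited macrophage markers summed to between 127 and 179 CPM against 45.7 to 58.6, with 5 called higher. What part these have in the subunit values was not tested.

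With LX-A2003 and LX-A3928 at 72 h no subunit was called, and the medians were -0.033 and 0.074. Without replicate 4 of LX-A3928 the second became -0.08, and 2 subunits were called lower, Cox8a (-0.70) and Uqcr11 (-0.48). Each had 1 member called, Atp5sl, which is no subunit, where 12.0 and 9.80% of all genes were called. Their lowest and highest subunit values were -0.50 for Ndufb5 and 0.70 for Cox6b2 with LX-A2003, and -0.75 for Cox4i2 and 0.36 for Ndufs4 with LX-A3928. None of these passed the test.

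At 168 h the subunits were lower with all 3 oligonucleotides, and the fall reached every complex. LX-A1656 had 61 members lower and 3 higher, where 29.7% of all genes were called lower and 34.1% higher. LX-A2003 had 61 lower and 1 higher, where 25.3 and 29.8% of all genes were. LX-A3928 had 43 lower and 2 higher, where 20.7 and 27.3% were. All 4 treated libraries lay below all 4 PBS libraries for 56, 53 and 24 of these lower members. The subunit medians were -1.01, -0.87 and -0.60, which correspond to 49.6, 54.7 and 66.2% of the PBS level. Without replicate 3 of LX-A3928 the lower calls for that oligonucleotide rose to 59. With only the 8 libraries of that comparison in the fit they numbered 20, and with library totals alone 28. Calls over all genes were 1887 higher and 1321 lower with the 8 libraries, and 5144 and 1458 with totals alone. In the fit of all libraries they were 3464 and 2623.

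The complexes differed little in how far they fell. With LX-A1656 at 168 h the medians were -1.06 for complex I, -0.99 for II, -0.90 for III, -0.83 for IV and -1.26 for V. With LX-A2003 they were -0.85, -1.02, -0.98, -0.81 and -1.03, and with LX-A3928 -0.53, -0.69, -0.50, -0.59 and -0.79. The order of the complexes depended on the measure. By these medians complex V was lowest, with LX-A2003 at -1.03 against -1.02 for II. By mean log2 level complex II was lowest with LX-A2003, at -1.04 against -0.93 for V. Complex IV fell least by mean log2 level, at -0.60, -0.51 and -0.38 against -1.18, -0.93 and -0.77 for V. That mean weighs Cox6b2, at a few CPM and called higher, as much as any other subunit. By summed CPM complex IV was at 50.8, 54.5 and 69% of PBS and V at 48.2, 56 and 59.2%. The single subunits within a complex spread wider than the medians did, as in complex I from -2.13 for Ndufa1 to -0.34 for Ndufc2 with LX-A1656. No test compares the complexes, since subunits are not replicates. In complex II all 4 subunits, in III all 8 and in V all 10 were called lower with LX-A1656 and with LX-A2003. Scaling by library totals alone lost the calls of Sdhd, Uqcrc2, Uqcrfs1, Uqcrh and Atp5d with LX-A1656 and of Sdhc, Uqcrc1, Uqcrh, Atp5b, Atp5d and Atp5g3 with LX-A2003. Without replicate 1 of PBS complex III had 7 lower with either and complex V 9 with LX-A2003.

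**Figure D1:**
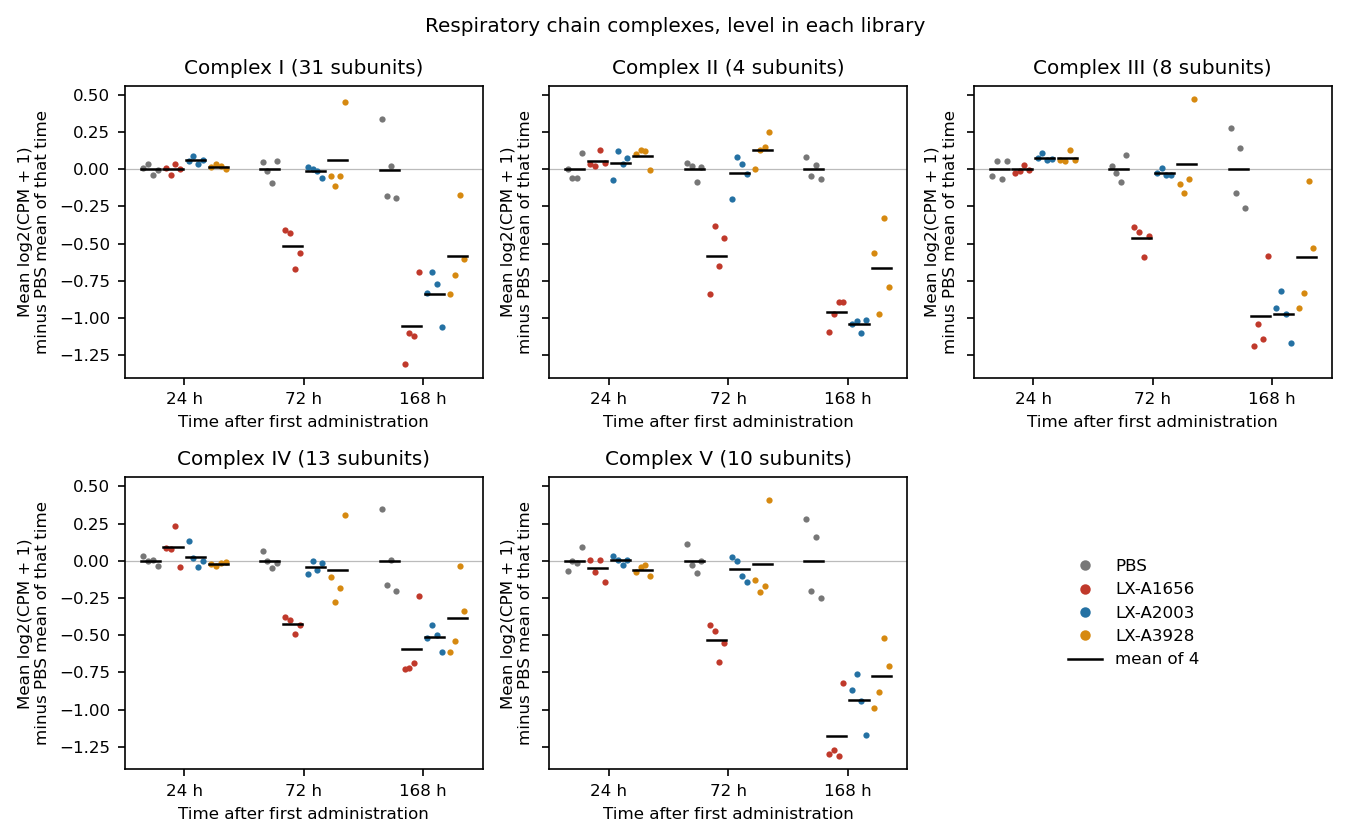
Mean log2(CPM + 1) over the tested subunits of each complex (y axis), as the difference from the PBS mean of the same time, for each of the 48 libraries by time (x axis) and treatment (colour), with black bars for the mean of 4. LX-A1656 libraries lie below PBS at 72 h, and at 168 h all 3 treatments do in most libraries, with replicate 3 of LX-A3928 at -0.17 in complex I.

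**Figure D2:**
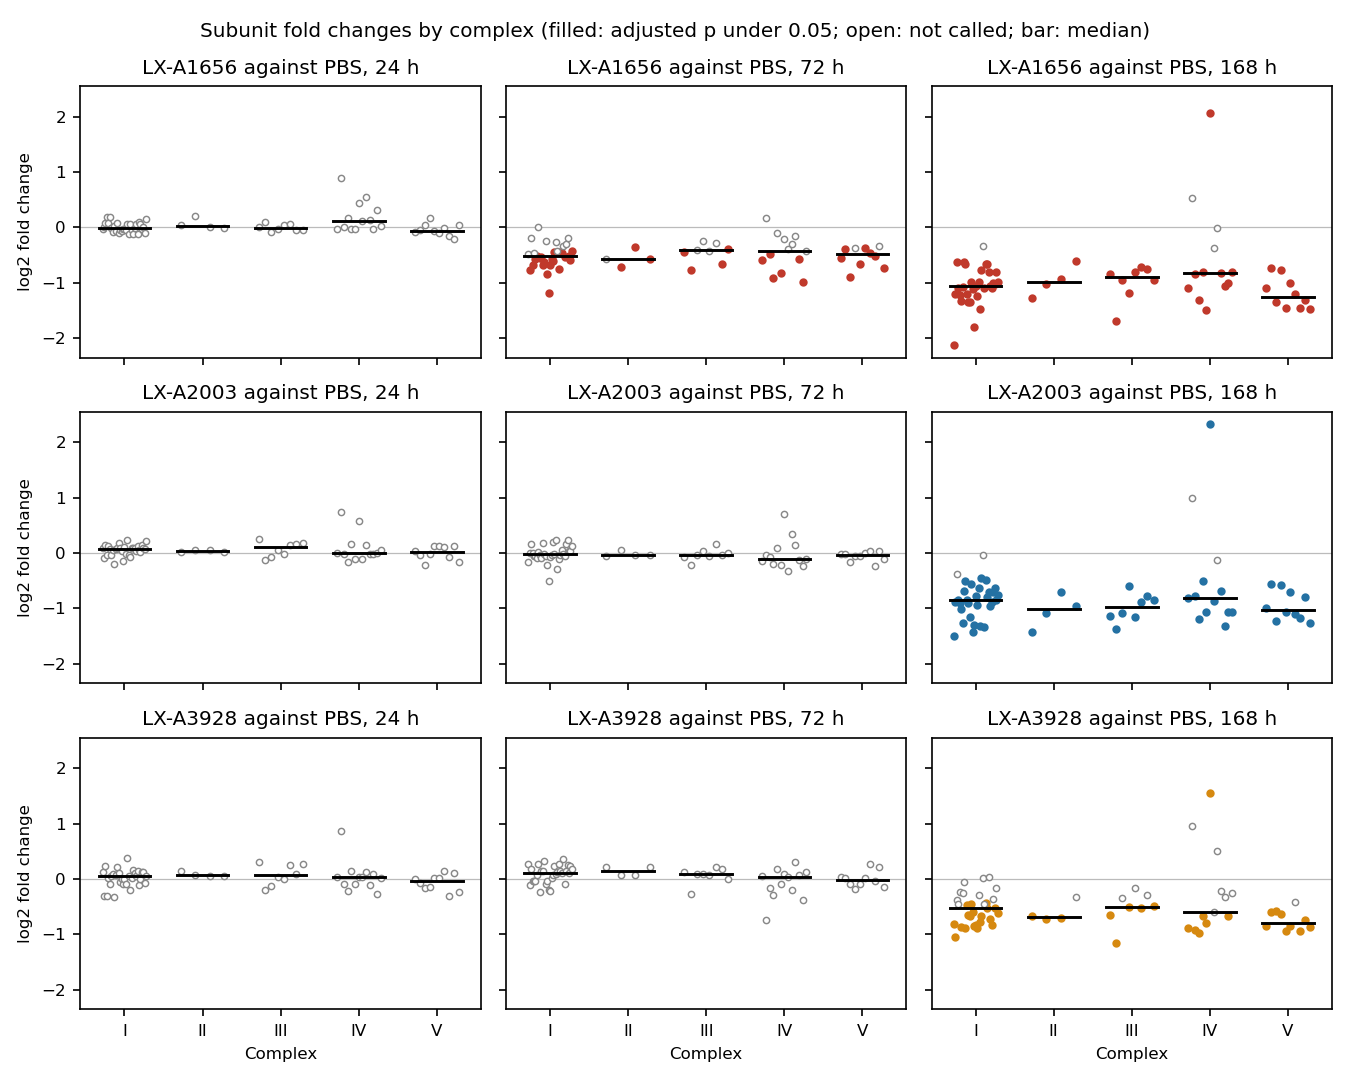
Log2 fold change against PBS of the same time (y axis) for each of the 66 tested subunits, grouped by complex (x axis), in the 9 comparisons; filled points were called at an adjusted p under 0.05, open points were not, and bars are medians. Points gather at 0 at 24 h and fall to medians between -1.26 and -0.50 at 168 h, with Cox6b2 alone called higher.

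In TMM-scaled CPM written as a percentage, the subunits summed to 3.28, 2.40, 2.86 and 2.31% in the 4 PBS livers at 168 h. These values depend on the scaling and are not shares of raw counts. TMM factors ran from 0.8345 to 0.9563 in these PBS libraries and from 1.114 to 1.313 with LX-A1656. LX-A1656 livers gave 1.13, 1.27, 1.23 and 1.69%, LX-A2003 livers 1.49, 1.65, 1.45 and 1.25%, and LX-A3928 livers 1.46, 1.52, 2.46 and 1.75%. Replicate 3 of LX-A3928 alone among the treated livers lay within the PBS range. Liver RNA here is bulk, so fewer cells of a type and less RNA per cell cannot be told apart.

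In complex I, Ndufa1, a small membrane subunit needed for assembly, had the lowest value of all members for LX-A1656 and for LX-A2003 at 168 h. It was at 605, 422, 475 and 400 CPM in PBS livers, at 46.4, 123, 119 and 146 with LX-A1656, at 145, 204, 158 and 165 with LX-A2003, and at 208, 153, 512 and 202 with LX-A3928. LX-A1656 and LX-A2003 livers all lay below PBS, and replicate 3 of LX-A3928 lay within the PBS range. The fold changes were -2.13 ± 0.245 (edgeR adjusted p = 3e-10), -1.5 ± 0.24 (8.67e-07) and -0.82 ± 0.236 (0.00354). The call with LX-A3928 was lost with only the 8 libraries compared (-0.79).

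Ndufb5, an accessory subunit of the membrane arm, had the lowest value of the 66 subunits with LX-A1656 at 72 h. At 72 h it was at 195, 166, 172 and 168 CPM in PBS livers and at 107, 87.5, 51.6 and 64.8 with LX-A1656, a change of -1.18 ± 0.25 with no overlap (edgeR adjusted p = 0.000121). At 168 h it changed by -1.80 ± 0.255, -1.30 ± 0.252 and -0.86 ± 0.249. The call with LX-A3928 was lost with only the 8 libraries compared (-0.83). Ndufb5 overlaps Mrpl47 on the opposite strand, and its reads could include those of its neighbour because the counting strand is not given.

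The core subunits that carry the redox centres of complex I moved the same way. Ndufs1, the largest iron-sulphur subunit, was at 282, 305, 285 and 286 CPM in PBS livers at 168 h, at 61.9, 168, 174 and 135 with LX-A1656 and at 102, 67.9, 135 and 152 with LX-A2003. These groups do not overlap, and the changes were -1.10 ± 0.26 (edgeR adjusted p = 0.000286) and -1.34 ± 0.262 (2.93e-05). With LX-A3928 Ndufs1 was at 251, 110, 378 and 106 CPM, which overlaps PBS, and its value of -0.46 did not pass the test; without replicate 3 it was -0.89 and did. Ndufv1, which binds NADH, changed by -1.02 ± 0.166, -0.64 ± 0.165 and -0.52 ± 0.165. Its call with LX-A3928 was lost without replicate 1 of PBS (-0.40), with only the 8 libraries compared (-0.49) and with library totals alone (-0.19), and with totals its call with LX-A2003 was lost as well (-0.22).

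Ndufb9, Ndufb10, Ndufa3 and Ndufa9, accessory subunits, had the smallest adjusted p-values of the other complex I members with LX-A1656, with changes of -1.48, -1.35, -1.33 and -1.21. Ndufa10 was among the 5 lowest with LX-A3928, at -1.05 ± 0.146 (edgeR adjusted p = 7.29e-08), and lay below PBS in all 4 libraries. Ndufc2, another accessory subunit, was called with no oligonucleotide, at -0.34 ± 0.286, -0.032 ± 0.285 and 0.015 ± 0.286. Without replicate 4 of LX-A1656 its value with that oligonucleotide was -0.69 and passed the test.

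In complex II, Sdhb, the iron-sulphur subunit, was at 499, 297, 409 and 303 CPM in PBS livers at 168 h. It was at 173, 170, 167 and 228 with LX-A1656, at 181, 216, 170 and 148 with LX-A2003 and at 189, 233, 230 and 264 with LX-A3928. Every treated library lay below every PBS library, replicate 3 of LX-A3928 included. The changes were -1.03 ± 0.148, -1.08 ± 0.148 and -0.72 ± 0.147 (edgeR adjusted p = 5.5e-08, 3.49e-08 and 7.03e-05).

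Sdha, the flavoprotein that oxidises succinate, changed by -1.28 ± 0.263 and -1.42 ± 0.264 with LX-A1656 and LX-A2003. With LX-A3928 it was at 441, 150, 484 and 198 CPM, overlapping PBS at 406, 631, 412 and 582, and its call at -0.67 ± 0.26 (edgeR adjusted p = 0.0295) was lost without replicate 2 or 4 of LX-A3928 or of PBS, at values from -0.60 to -0.44. The membrane anchors Sdhc and Sdhd also fell with LX-A1656 (-0.94 and -0.61) and with LX-A2003 (-0.71 and -0.95). With LX-A3928 Sdhc fell by 0.70 and Sdhd, at -0.33, did not pass the test, though at -0.72 it did without replicate 3.

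In complex III, Uqcr11, a small peripheral subunit, showed the smallest adjusted p at 168 h with each oligonucleotide. It was at 684, 477, 596 and 530 CPM in PBS livers, at 164, 174, 163 and 202 with LX-A1656, at 242, 212, 224 and 204 with LX-A2003 and at 209, 225, 325 and 262 with LX-A3928, with no overlap. The changes were -1.70 ± 0.154, -1.37 ± 0.152 and -1.16 ± 0.151 (edgeR adjusted p = 2.94e-13, 1.96e-10 and 1.6e-08). At 72 h it was already at -0.77 ± 0.15 with LX-A1656.

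Uqcrfs1, the Rieske iron-sulphur protein, changed by -0.71 ± 0.134, -0.88 ± 0.134 and -0.53 ± 0.134 at 168 h. Its call with LX-A3928 was lost with only the 8 libraries compared (-0.50) and with library totals alone (-0.21). The core protein gene Uqcrc1 changed by -1.18 ± 0.188, -0.59 ± 0.186 and -0.51 ± 0.186, and lay below PBS in all libraries only with LX-A1656. Its call with LX-A3928 was lost without replicate 1 or 3 of LX-A3928 or of PBS, at -0.45 to -0.37. Its call with LX-A2003 was lost without replicate 4 of LX-A2003 (-0.43) or replicate 3 of PBS (-0.44).

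**Figure D3:**
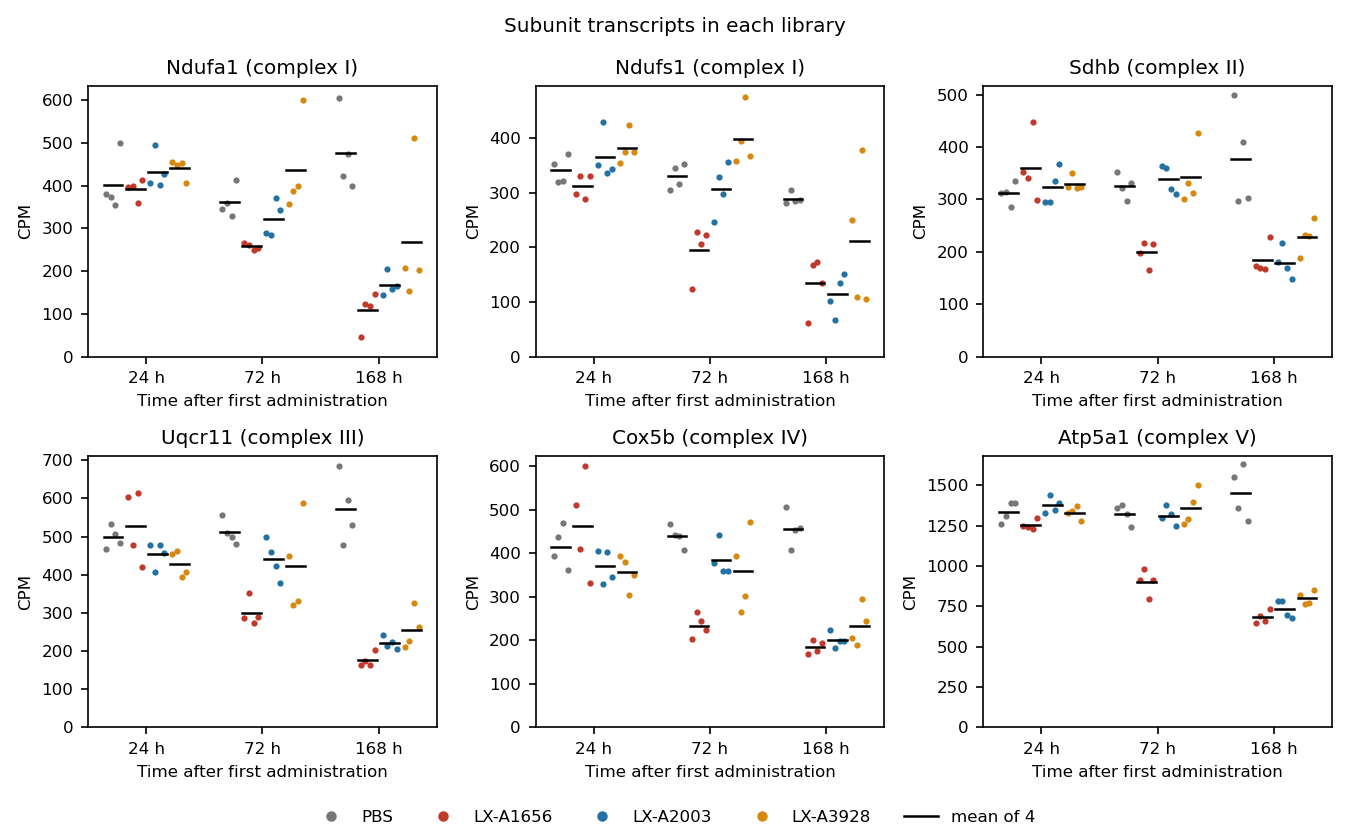
Level in CPM (y axis, from 0) of 6 subunit transcripts in each library by time (x axis) and treatment (colour), with black bars for the mean of 4; each panel has its own scale. Atp5a1 and Uqcr11 at 168 h show all treated libraries below all PBS libraries, and Ndufa1 and Ndufs1 show replicate 3 of LX-A3928 at 512 and 378 CPM.

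In complex IV, Cox5b, a matrix-side subunit that binds zinc, was at 467, 442, 439 and 408 CPM in the PBS group at 72 h, and at 203, 265, 243 and 223 with LX-A1656, a change of -0.91 ± 0.155 with no overlap. At 168 h its changes were -1.31 ± 0.156, -1.19 ± 0.155 and -0.97 ± 0.155 (edgeR adjusted p = 7.42e-10, 1.11e-08 and 1.09e-06), again with no overlap. Cox4i1, the common form of the largest nuclear-encoded subunit, changed by -1.10 ± 0.177, -0.81 ± 0.176 and -0.88 ± 0.177. Cox5a was among the 5 lowest with LX-A3928, at -0.93 ± 0.131. Ndufa4 fell with LX-A1656 and LX-A2003 (-0.81 and -1.07), and its value with LX-A3928 went from -0.26, not called, to -0.88 without replicate 3.

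The isoforms of Cox6b, a subunit on the outer face of complex IV, went opposite ways at 168 h. Cox6b1, the widely expressed form, was at 1150, 668, 817 and 691 CPM in PBS livers, at 270, 264, 234 and 404 with LX-A1656, at 415, 445, 400 and 323 with LX-A2003 and at 229, 447, 731 and 505 with LX-A3928. It fell by 1.5, 1.07 and 0.80 on the log2 scale, and only LX-A3928 overlapped PBS. The call with LX-A3928 was lost with only the 8 libraries compared (-0.76). Cox6b2, known as the testis form, was at 2.51, 1.55, 0.404 and 1.02 CPM in PBS livers, at 7.86, 3.82, 7.07 and 4.42 with LX-A1656, at 8.14, 6.50, 4.73 and 8.67 with LX-A2003 and at 3.49, 4.00, 2.56 and 6.26 with LX-A3928.

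Every treated library was above every PBS library for Cox6b2 at 168 h. The changes were 2.06 ± 0.377, 2.33 ± 0.377 and 1.56 ± 0.383 (edgeR adjusted p = 7.13e-06, 1.04e-06 and 0.000707). The counts behind them were few: 46 reads over the 4 PBS libraries and 346, 370 and 204 over the treated groups. Cox6b2 was the only subunit called higher in any comparison with PBS. At 24 and 72 h it was called with no oligonucleotide.

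**Figure D4:**
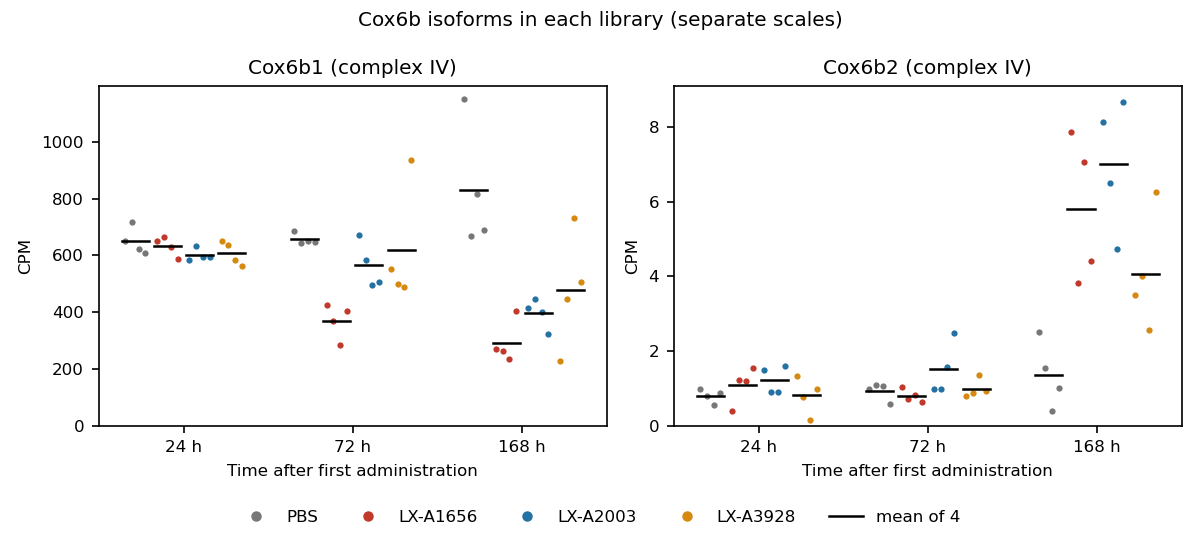
Level in CPM (y axis, from 0, separate scales) of Cox6b1 and Cox6b2 in each library by time (x axis) and treatment (colour), with black bars for the mean of 4. At 168 h Cox6b1 is lower in treated livers, and Cox6b2 lies between 2.56 and 8.67 CPM in them against at most 2.51 in PBS livers.

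Other tissue or hypoxia forms were sparse. Cox4i2, the form known from lung and hypoxia, held 343 counts over all libraries and changed by 0.53 ± 0.545, 0.99 ± 0.537 and 0.96 ± 0.538 at 168 h, none of them called. Set against the mean of the 3 PBS groups, a choice made after seeing the data, its values of 1.47, 1.93 and 1.91 did pass. That reference includes PBS at 24 h, where Cox4i2 held 6 counts in 2 of the 4 libraries. With library totals alone its values with LX-A2003 (1.42) and LX-A3928 (1.30) passed as well. Cox7a1, the muscle and heart form, held 659 counts and was not called, and Cox7a2, the liver form, fell by 0.83 with LX-A1656 and 0.69 with LX-A2003. Both of these calls were lost without replicate 1 of PBS (-0.55 and -0.42), and that with LX-A2003 also without its replicate 4 (-0.57). Cox6a1, the liver form of Cox6a, fell by 0.80, 0.51 and 0.67, with groups that overlapped PBS each time. Its call with LX-A2003 was lost in 5 of 8 fits that left out a library. Its call with LX-A3928 was lost with only the 8 libraries compared (-0.64) and with library totals alone (-0.33). That call was also lost against the mean of the 3 PBS groups (-0.37).

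In complex V, both large subunits of the catalytic head fell with all 3 oligonucleotides at 168 h. Atp5a1, the alpha subunit, was at 1550, 1360, 1630 and 1280 CPM in PBS livers, at 644, 689, 659 and 731 with LX-A1656, at 781, 780, 698 and 674 with LX-A2003 and at 821, 765, 770 and 850 with LX-A3928. No group overlapped PBS, and replicate 3 of LX-A3928 stood with its group. The changes were -1.10 ± 0.0977, -0.99 ± 0.0975 and -0.86 ± 0.0972 (edgeR adjusted p = 2.07e-13, 8.31e-12 and 5.28e-10). Atp5b, the beta subunit, changed by -0.73 ± 0.123, -0.55 ± 0.123 and -0.60 ± 0.123, also with no overlap. Its call with LX-A2003 was lost with library totals alone (-0.13) and that with LX-A3928 with only the 8 libraries compared (-0.57).

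Atp5o, which joins the catalytic head to the stalk, was the lowest complex V member with LX-A1656 and with LX-A2003, at -1.48 ± 0.198 and -1.26 ± 0.197. Atp5e, the epsilon subunit, was the lowest with LX-A3928, at -0.95 ± 0.13, and lay below PBS in all 4 libraries. Atp5g3, a gene of the proton-carrying ring, changed by -1.0 ± 0.157, -0.71 ± 0.156 and -0.85 ± 0.156. Atp5c1, the central shaft, was the lowest complex V member at 72 h with LX-A1656, at -0.89 ± 0.187.

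The 3 tested members that are no subunits had few lower calls. Atp5sl, named Dmac2 in RefSeq and linked to complex I assembly, was at 31.7, 33.5, 29.1 and 34.0 CPM in the PBS group at 24 h and at 44.4, 44.0, 46.3 and 48.5 with LX-A1656, all above PBS. Its change of 0.51 ± 0.146 (edgeR adjusted p = 0.0393) was the only call at 24 h, and it was lost when any 1 of the 8 libraries was left out. At 72 h it rose with LX-A2003 and LX-A3928, by 0.72 ± 0.145 and 0.77 ± 0.145 (edgeR adjusted p = 0.000329 and 0.000163). At 168 h its 0.34 ± 0.144 with LX-A1656 was called but lost without any 1 of 6 of the 8 libraries, at 0.26 to 0.33. Atp5s, named Dmac2l in RefSeq, rose at 168 h with LX-A1656 (0.74 ± 0.259) and with LX-A3928 (0.78 ± 0.261), where replicate 3 was at 45.2 CPM against 10.0 to 19.0 in the others. Without that replicate the value with LX-A3928 was 0.11 and not called. Ndufa4l2, known as a hypoxia target, was lower at 72 h with LX-A1656, at -1.36 ± 0.396 on 35 counts against 67, with overlap.

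The oligonucleotides were compared with each other at matched times, in 9 pairs with p-values adjusted within each. At 24 h edgeR and DESeq2 called 0 members in each pair, where 0.284, 2.90 and 0.150% of all genes were called, and 1, 7 and 0 had an unadjusted p under 0.05. The 95% intervals of these differences had a median width of ± 0.37 (t with 36 degrees of freedom), from ± 0.20 for the most precise subunit. For Atp5a1 the interval of LX-A2003 minus LX-A1656 ran from -0.07 to 0.33.

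At 72 h LX-A2003 livers had 39 members higher than LX-A1656 livers, where 18.0% of all genes were, and LX-A3928 livers had 49, where 20.4% were. None was lower, by edgeR, DESeq2 or at an unadjusted p under 0.05. The largest differences that separated all libraries were Ndufb10 at 0.89 ± 0.16 for LX-A2003 and Ndufs1 at 1.03 ± 0.26 for LX-A3928. Without replicate 4 of LX-A3928 the count against LX-A1656 was 29. Between LX-A3928 and LX-A2003 no difference passed, with 0 calls by edgeR, by DESeq2 and at an unadjusted p under 0.05, where 0.718% of all genes were called. Single differences there ran from -0.72 to 0.44, with a median interval of ± 0.37.

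At 168 h LX-A3928 livers had 36 members higher and 1 lower than LX-A1656 livers, where 23.2 and 18.5% of all genes were called. Without replicate 3 of LX-A3928 the sum of calls fell from 37 to 18. LX-A3928 had 16 higher than LX-A2003, where 5.33% of all genes were, but 0 without that library, and 6 without replicate 1 of LX-A2003. LX-A2003 had 6 higher and 2 lower than LX-A1656, where 18.3 and 13.8% of all genes were. Those 8 calls ranged from 1 without replicate 2 of LX-A2003 to 21 without replicate 4 of LX-A1656, and were 3, 4 and 4 without replicates 1, 2 and 3 of LX-A1656 and 15 without replicate 4 of LX-A2003. Ndufa1 was 1.31 ± 0.239 higher with LX-A3928 and 0.63 ± 0.236 higher with LX-A2003 than with LX-A1656. Without replicate 3 of LX-A3928 the first was 0.79 ± 0.2.

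The change with time was tested as the 168 h effect minus the 24 h effect of each oligonucleotide. LX-A1656 had 58 members lower and 1 higher, where 23.8 and 23.2% of all genes were called. LX-A2003 had 56 lower and 1 higher, where 18.5 and 20.0% were, and LX-A3928 had 32 lower and 1 higher, where 15.0 and 17.4% were. Without replicate 3 of LX-A3928 its 33 calls became 53. The lowest were Ndufa1 with LX-A1656 (-2.09 ± 0.336) and LX-A2003 (-1.61 ± 0.334) and Atp5e with LX-A3928 (-0.97 ± 0.182), and Cox6b2 was the 1 higher in each. Scaling by library totals alone left 35, 32 and 12 calls in all. Lower calls over all genes then numbered 1676, 1130 and 992, and higher calls 4935, 4414 and 3609.

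PBS livers themselves showed 0 members called at 72 h or at 168 h against 24 h by edgeR and DESeq2, where 0.0789 and 1.03% of all genes were called. At an unadjusted p under 0.05 the counts were 0 and 15. The median of the subunits at 168 h was 0.22 above that at 24 h, against 0.00087 for all genes, and 0.11 above it without replicate 1 of PBS at 168 h.

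Other mitochondrial genes were counted from lists, to be read beside the 29.7, 25.3 and 20.7% of all genes called lower at 168 h and the 34.1, 29.8 and 27.3% called higher. Of 40 assembly factors, 29, 22 and 18 were lower at 168 h and 1, 0 and 1 higher, with medians of -0.74, -0.49 and -0.30. They included Bcs1l, which inserts the Rieske protein, at -2.49 ± 0.177 with LX-A1656, Nubpl, which serves complex I iron-sulphur clusters, at -2.04 ± 0.165, and Surf1, a complex IV factor, at -1.26 ± 0.158. Of 69 mitochondrial ribosomal protein genes, 46, 48 and 25 were lower and 2, 0 and 4 higher. Of 18 genes for proteins of the cytosolic ribosome, 2, 1 and 1 were lower and 4, 0 and 3 higher.

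Of 18 genes for electron carriers and exchange, 9, 10 and 9 were lower and 3, 1 and 3 higher. Etfa, which passes electrons from fatty acid oxidation into the chain, changed by -2.87 ± 0.134, -1.96 ± 0.13 and -1.55 ± 0.128. Cyc1, the haem-bearing subunit of complex III, changed by -1.42 ± 0.172, -0.80 ± 0.17 and -0.79 ± 0.17. Slc25a4, the muscle form of the ADP/ATP exchanger, rose by 2.73 ± 0.189, 1.71 ± 0.184 and 1.5 ± 0.184. Of 16 citric acid cycle genes, 9, 11 and 4 were lower and 1, 0 and 0 higher, and Pdhx, of the pyruvate dehydrogenase complex, was at -1.41, -1.05 and -0.87.

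Of 20 genes for mitochondrial transcription and biogenesis, 11, 12 and 6 were lower and 2, 1 and 1 higher. Gabpa, a subunit of the GABP factor that overlaps Atp5j on the other strand, changed by -1.39 ± 0.247, -1.33 ± 0.247 and -1.09 ± 0.247 at 168 h. Tfam, which packages and transcribes mitochondrial DNA, changed by -0.85 ± 0.138 and -0.43 ± 0.137 with LX-A1656 and LX-A2003, and its value of -0.21 with LX-A3928 was not called. Ppargc1a, a coactivator of these genes, rose by 1.63 ± 0.328 with LX-A1656 and fell by 1.23 and 1.18 with LX-A2003 and LX-A3928. Nrf1 was not called, at 0.042, -0.10 and -0.14. Of 14 chaperone and protease genes, 8, 7 and 7 were lower and none higher, among them Trap1 at -2.35, -1.16 and -0.94.

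The hypoxia list was mixed, with 7, 7 and 6 of 12 genes higher and 3, 3 and 5 lower, beside the same shares of all genes. Hk2 rose by 4.40, 3.75 and 2.42 from 0.269 CPM in PBS livers, while Pdk1, which turns off pyruvate dehydrogenase, fell by 1.54, 1.49 and 1.10.

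Markers of other cells moved at the same time. The 6 monocyte and recruited macrophage markers measured summed to 57.5 ± 5.55 CPM in PBS livers at 168 h, between 52.1 and 64.8. With treatment they summed to 652 ± 146, 298 ± 29.7 and 232 ± 61.8, with 5, 6 and 6 of 6 called higher. Of 8 stellate and myofibroblast markers 7, 7 and 6 were higher, and of 8 sinusoidal endothelial markers 5, 5 and 5 were lower and 2, 2 and 3 higher. Of 6 Kupffer cell markers 3, 3 and 4 were higher and 2, 1 and 0 lower, and of 4 tested neutrophil markers 4, 2 and 4 were higher, with Ly6g at 0 in PBS livers. The 11 hepatocyte markers summed, as above, to between 67800 and 88100 CPM in PBS livers and to between 45000 and 66500, 34200 and 42300, and 33800 and 91900 with treatment, and 6, 7 and 7 were called lower and 4, 0 and 0 higher. What part a changed mix of cells has in the subunit values was not tested.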

How the data were processed

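Per the labels, liver RNA was taken up in TriPure and amplified with an Ion AmpliSeq mouse transcriptome panel of 1 fragment per gene, so an isoform or exon outside that fragment is not seen. The authors deposited whole-number read counts for 23930 genes in 48 libraries. Aligner, counter, genome build and strand were each not given in the sources used here. In GENCODE M21 24 of the members, 23 of them tested, overlap another protein-coding gene, and reads of pseudogene copies could not be checked. Besides Ndufb5 and Atp5j these members include Atp5a1, Ndufs1, Cox4i1, Ndufa3 and Ndufb9. Atp5o overlaps Cryzl1 and Donson on its own strand. Reads of such members could include those of a neighbour.

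The counts were filtered with filterByExpr over the 12 groups, leaving 12672 genes (the lowest share of counts kept in a library was 99.891%), and scaled with TMM. A single design with 12 group means was fitted in edgeR 4.0.16 (robust quasi-likelihood F test; 36 residual degrees of freedom, BCV 0.2114). The 23 comparisons were each adjusted by Benjamini-Hochberg over the genes tested. Each SE was taken as |log2 fold change| over the root of its F. DESeq2 1.42.0 was an alternative. The procedure was also run on counts simulated for LX-A1656 against PBS at 168 h. Few genes were changed there, as many raised as lowered, so that run cannot test the scaling of these data. The labels name no molecular identifiers, and PCR copies are not independent, so intervals cover less than the full error.

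Replicates differed by more than sampling noise. Same-numbered replicates did not deviate together in every pair, so the numbers were not used as a pairing. Members, gene lists, naming rule and the motifs were chosen with earlier results of these data known. Named were core subunits, isoforms and, per comparison with PBS, up to 5 highest and lowest called members with at least 10 CPM in a group and separated libraries, the smallest p of each complex, and up to 3 genes of each other list. Others, such as Surf1, Ndufc2, Sdhc, Sdhd, Ndufb9, Ndufb10, Ndufa3, Ndufa9, Nrf1 and Ppargc1a, were named after their values were seen. The values of 1 member are not reported here.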

Additional observations from a re-analysis of the deposited data

Results flagged for a closer look

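Of 60 sets of 4 replicates (5 complexes by 12 groups) tested for a value far from the others, 6 passed Dixon's critical value. Chance passes about 1 in 20 for a single set. The 5 complexes share the same libraries, so the 60 sets are not independent and 6 cannot be set against that rate. In LX-A3928 livers at 72 h the gap of replicate 4 above the others, as a share of the range, was 0.876 for complex I, 0.852 for complex III and 0.87 for complex V. In LX-A1656 livers at 168 h the gap of replicate 4 was 0.904 for complex IV and 0.906 for complex V. In LX-A3928 livers at 24 h replicate 3 stood 0.9 of the range above the others for complex III, within a range of 0.055 to 0.13 on the log2 scale. No set of PBS or of LX-A3928 livers at 168 h passed.

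The effect at 168 h differed from that at 24 h by a test of the difference itself in 59 members for LX-A1656, in 57 for LX-A2003 and in 33 for LX-A3928. Over all genes 23.2, 20.0 and 17.4% were called higher and 23.8, 18.5 and 15.0% lower.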

How the results depend on the processing

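No call on a single member or count turned its direction under any alternative run. Members called with LX-A1656 against PBS at 24 h numbered 0 with library totals alone, 0 with no filter on low counts, 0 against the mean of the 3 PBS groups (an alternative chosen after seeing the data) and 0 without any 1 library, against 1. All-gene calls there were 85 higher and 201 lower with totals alone, and 169 and 318 with the 3 PBS groups. LX-A3928 at 24 h gave 1 against the 3 PBS groups and 7 with only the 8 libraries compared, 6 of them subunits, against 0. These fits called 275 and 714 of all genes higher and 249 and 721 lower. At 72 h LX-A1656 gave 26 lower with totals alone, and 2, 2 and 1 higher with totals alone, the 3 PBS groups and the 8 libraries, against 0. Of all genes 4294, 3763 and 2979 were then called higher and 2153, 3280 and 3021 lower, against 3134 and 2968. LX-A2003 and LX-A3928 at 72 h each gave 2 with the 3 PBS groups and 2 with the 8 libraries. All-gene calls for LX-A2003 were 1202 higher and 1113 lower with the 3 PBS groups, and 1087 and 1422 with the 8 libraries. For LX-A3928 they were 1058 and 955, and 593 and 759. At 168 h LX-A2003 gave 0 higher with at least 10 CPM in 4 libraries, and 2 with totals alone or the 3 PBS groups. Of all genes 5865 and 4433 were higher in the last 2 of these fits, and 1685 and 3884 lower. LX-A3928 gave 28 lower with totals alone and 20 with the 8 libraries, and 1 higher with the CPM minimum or the 8 libraries. Its all-gene calls were 5144 higher and 1458 lower with totals alone, and 1887 and 1321 with the 8 libraries. Totals alone gave 17 and 18 for LX-A2003 and LX-A3928 against LX-A1656 at 72 h and 35, 32 and 12 for the changes from 24 to 168 h. In those pairs at 72 h totals alone called 1421 and 1495 of all genes higher and 3650 and 4257 lower. No filter gave 4 for LX-A2003 against LX-A1656 at 168 h.

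Leaving out 1 library gave 0 to 1 higher and 32 to 42 lower for LX-A1656 at 72 h, 1 to 3 for LX-A3928 at 72 h, and 36 to 59 lower and 1 to 2 higher for LX-A3928 at 168 h. For LX-A3928 against LX-A1656 it gave 0 to 1 at 24 h, 29 to 53 at 72 h and 18 to 44 at 168 h. It gave 1 to 21 for LX-A2003 against LX-A1656 and 0 to 21 for LX-A3928 against LX-A2003 at 168 h, and 27 to 53 for the change with time of LX-A3928. Of single members against PBS, 97 calls were lost, 33 gained and 4838 values kept their side of the threshold when a library was left out. The replicate block gave 42 lower for LX-A1656 at 72 h and 61, 61 and 43 at 168 h, and moved no count by over 1.5 times. Same-numbered replicates shared only a number, with correlations of their deviations from -0.499 to 0.543. The cause of each change was not tested. At a few counts per library, Cox6b2 and Cox4i2 limit what can be seen.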
